A study of Mus musculus with 14 samples.

Results

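The genes described are the 7 members of the gelsolin family Scin, Gsn, Capg, Vill, Avil, Flii and Svil, out of 55487 genes in the deposited table, in mast cells sorted from mouse ear skin. They were chosen as a gene family because Scin was known to be among the genes with the strongest signal in bone marrow mast cells, so the level of Scin in those cells chose the family. The bone marrow values of Scin are therefore given as a description with no test. All 7 members passed the filter on low counts and were among the 21014 genes tested.

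RNA was sequenced from 14 libraries, each of at most 100 sorted mast cells from both ears. Resident mast cells of untreated mice made up libraries 1 to 5 (n = 5) and resident mast cells of mice treated with MC903 made up libraries 6 to 10 (n = 5). There were 4 libraries, also after MC903, of cells that the labels call bone marrow mast cells (libraries 11, 13, 14 and 15). MC903 is calcipotriol, a vitamin D analogue that is applied to mouse skin to produce a dermatitis resembling atopic dermatitis. Besides resident cells, the protocol lists a sort of mast cells positive for integrin β7, and the bone marrow group was taken to be that sort from the skin. Strain, genotype, age, MC903 dose and treatment time were not given in the sources used here, nor whether libraries came from separate animals, so p-values measure only the spread between these libraries.

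The gelsolin family is built on a repeated actin-binding domain that responds to calcium. Gelsolin and scinderin cut actin filaments when calcium rises, stay on the new barbed end as a cap, and are released by the membrane lipid PIP2. Other members kept only part of this activity, and Capg, for example, caps filaments without cutting them. In mast cells a layer of cortical actin lies beneath the plasma membrane, and it is remodelled when granules are secreted.

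The sequences just upstream of the start sites are shown for Scin, the gene the family was chosen for, and for Gsn and Flii, the other members that differed between groups. Each is the 250 bases before the RefSeq start site on GRCm38.p6 (the build of mm10), in the direction of the gene. Capitals mark exact matches on either strand to GGGCGG, the core of the GC box, to GATAA, the core of GATA factor sites, or to GAGGAA, an ETS-type core.
Scin, chr12:40134229-40134478, minus strand: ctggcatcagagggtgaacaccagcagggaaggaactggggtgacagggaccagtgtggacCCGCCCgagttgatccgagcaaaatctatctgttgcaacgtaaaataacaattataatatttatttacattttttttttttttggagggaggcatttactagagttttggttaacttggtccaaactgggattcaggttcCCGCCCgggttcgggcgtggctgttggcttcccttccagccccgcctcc
Gsn first start, chr2:35256109-35256358, plus strand: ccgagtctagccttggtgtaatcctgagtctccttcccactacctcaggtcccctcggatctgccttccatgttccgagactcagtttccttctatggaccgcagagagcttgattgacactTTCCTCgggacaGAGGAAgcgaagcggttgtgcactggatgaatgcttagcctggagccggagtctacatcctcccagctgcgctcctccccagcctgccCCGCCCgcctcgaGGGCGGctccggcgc
Gsn last start, chr2:35282130-35282379, plus strand: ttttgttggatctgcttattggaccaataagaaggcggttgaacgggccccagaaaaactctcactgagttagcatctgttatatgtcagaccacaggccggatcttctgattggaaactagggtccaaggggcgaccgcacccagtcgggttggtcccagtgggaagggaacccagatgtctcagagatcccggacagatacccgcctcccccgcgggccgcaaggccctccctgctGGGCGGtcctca
Flii, chr11:60727264-60727513, minus strand: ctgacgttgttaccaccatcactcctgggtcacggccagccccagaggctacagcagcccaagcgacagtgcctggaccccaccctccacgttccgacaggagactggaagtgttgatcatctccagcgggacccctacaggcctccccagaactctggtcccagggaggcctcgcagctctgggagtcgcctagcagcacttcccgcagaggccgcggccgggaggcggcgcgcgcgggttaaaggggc

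The Scin window held 2 GGGCGG matches, 189 and 49 bases before the start site, and no GATAA match. The first Gsn window held 2 GGGCGG matches (28 and 15 bases before the start) and 2 GAGGAA matches, and the last held 1 GGGCGG match 12 bases before the start. Another listed Gsn start, between them, held 1 GGGCGG and 1 GATAA match. The windows of Flii, Capg and Vill held no match to the motifs searched, and the Avil window held 1 GATAA and 1 GAGGAA match. CATGTG (an E-box form), the CArG box and the DR3 form of the vitamin D response element were also searched and matched in none of the 8 windows of the 6 members with an entry. Among 32851 RefSeq promoter windows of the same length, 32.7% held GGGCGG, 22.6% GATAA, 23.3% GAGGAA, 12.3% CATGTG, 1.47% a CArG box and 0.0396% a DR3 element. In GENCODE M21, the transcript from the first Gsn start region encodes 731 residues, the length of cytoplasmic gelsolin, and the transcript from the last start encodes 780, the length of the secreted form. Counts were per gene, so the Gsn values below hold both forms together.

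Before the results, the libraries were checked against cell type markers. Total counts ranged from 13068078 to 31781926. All 9 mast cell markers were detected in each group, and their summed level lay between 84640 and 159600 CPM over the 14 libraries (CPM, the reads of a gene per 1000000 reads of the library total scaled by the TMM normalization factor). Bone marrow library 15 stood apart. Its 6 macrophage and dendritic cell markers summed to 5273 CPM, with C1qb at 2239 CPM and Csf1r at 1094 CPM, against 80.3 to 166 CPM for libraries 11, 13 and 14 and 21.8 to 76.1 CPM in the 10 resident libraries. The levels of Scin, Gsn, Flii and Capg and the make-up of the family are therefore given with and without it. Among basophil markers, Mcpt8, a protease gene, was at 979, 206, 83.5 and 46.2 CPM in bone marrow libraries 11, 13, 14 and 15 and at most at 57.1 CPM in a resident library, and the 4-gene basophil sum was 1547 CPM in library 11 against 291 to 822 CPM in the other 13. Prss34, another basophil protease gene, was at most at 15.9 CPM in bone marrow cells and reached 41.7 CPM in resident library 7. Itga2 was at 22.7 to 36.1 CPM in bone marrow libraries, below each resident library (53.0 to 140 CPM). Cd200r3 was at 222 to 582 CPM in bone marrow and 420 to 712 CPM in resident libraries, where it made up most of the 4-gene sum. The part of the basophil markers in the bone marrow values was not tested. The other lists were low, with fibroblast markers summing to at most 31.6 CPM, keratinocyte markers to 8.16 CPM, neutrophil markers to 74.2 CPM (library 15), T cell markers to 84.1 CPM (library 13) and vascular and smooth muscle markers to 39.9 CPM (library 13). Libraries 7, 8 and 15 had the most genes detected, from 32814 to 35246 genes. Bone marrow libraries 11, 13 and 14 had the fewest, from 16025 to 19817, below each resident library (21874 or more). The part of this difference in the bone marrow values was not tested.

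Scin encodes scinderin (adseverin), a calcium-dependent severing protein best known from secretory cells and platelets (ENSMUSG00000002565.16, chromosome 12, 40059769 to 40134228, minus strand, mm10). It was at 0.791, 0.205, 0.375, 0.237 and 1.56 CPM in untreated resident libraries 1 to 5, which is 5 to 35 counts a library. In MC903 resident libraries 6 to 10 it was at 9.95, 0.801, 2.80, 0.0971 and 26.0 CPM, and in bone marrow libraries 11, 13, 14 and 15 at 492, 681, 644 and 219 CPM. The lowest bone marrow library held 4360 counts and the highest resident library 618, so the bone marrow libraries did not overlap with either resident group. Untreated and MC903 resident libraries did overlap, with library 9 at 2 counts. In pools of cells, a few cells with much of a transcript and many cells with little of it cannot be told apart.

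Mean Scin levels were 0.634 ± 0.569 (untreated resident, SD, n = 5), 7.93 ± 10.8 (MC903 resident, SD, n = 5) and 509 ± 210 CPM (bone marrow, SD, n = 4). The fitted log2 fold change was 5.99 ± 1.22 (SE) in bone marrow against MC903 resident cells, the 42nd highest of 21014 genes, and 9.65 ± 1.45 (SE) against untreated resident cells, the 21st highest. Without library 15, the lowest of the group, the bone marrow mean was 606 ± 99.9 CPM (SD, n = 3) and the log2 fold changes were 6.25 and 9.91. Without library 11, which had the highest basophil marker sum, they were 5.98 and 9.65. With each single library left out in turn, the first ranged from 5.6 to 7.2, the highest without library 10, and the second from 9.43 to 10.33, the highest without library 5. Over the alternative fits the first ranged from 5.64 to 7.81 and the second from 9.63 to 10.28. These values chose the gene and carry no test.

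The comparison of MC903 resident with untreated resident cells was not one that Scin was chosen on, although it shares the libraries of both resident groups with the bone marrow comparisons. Scin had a log2 fold change of 3.66 ± 1.16 (SE) there, at an edgeR adjusted p of 0.159, so the groups did not differ beyond the threshold. With single libraries left out the log2 fold change ranged from 2.45 to 4.34. It was lowest without library 10, the highest of the group (edgeR adjusted p = 0.318). With all libraries and the DESeq2 Wald test in place of edgeR, the log2 fold change was 3.72 with an adjusted p of 0.00699. Libraries 6 and 10, which had the highest Scin levels of the resident cells, also had the highest summed T cell markers among resident libraries, 43.7 and 33.5 CPM against 0.0750 to 8.92 CPM in the other 8. Most of that sum was Cd4 (39.1 and 29.0 CPM), while Cd3e, Cd3d and Cd3g were each at most 3.73 CPM in these libraries. The part of these markers in the Scin values was not tested.

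**Figure D1:**
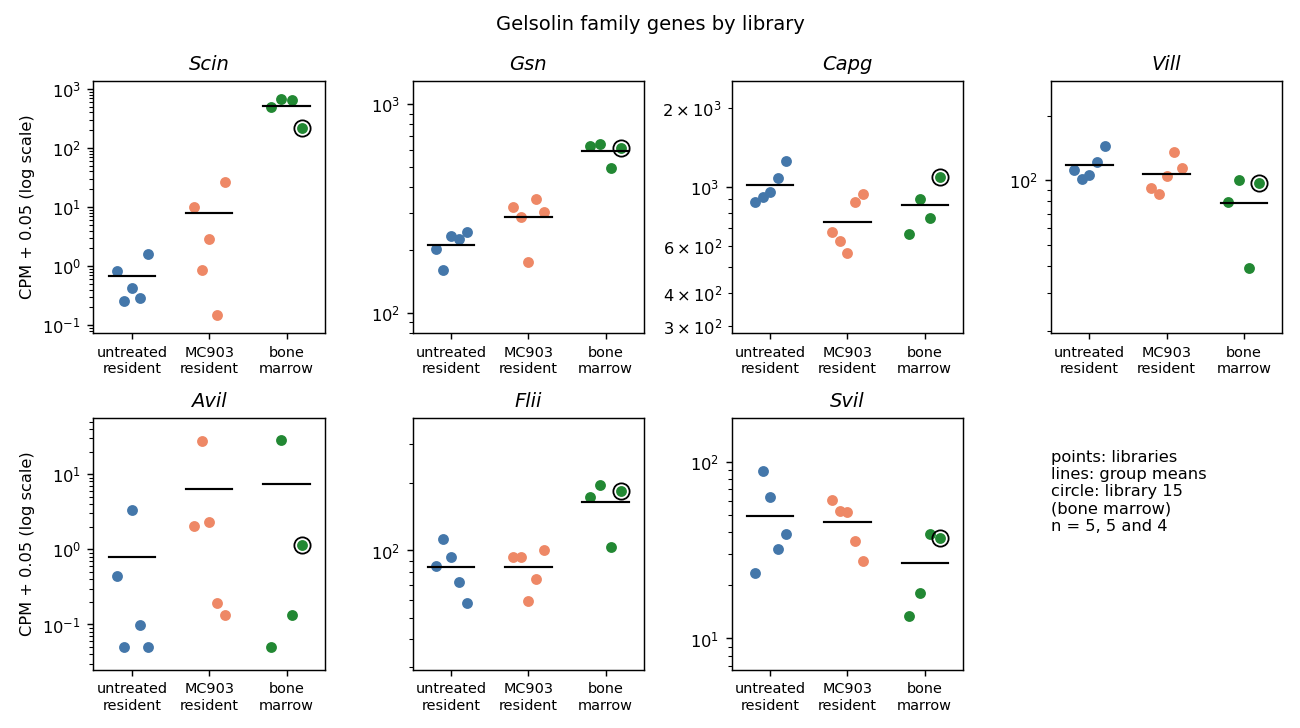
CPM of each gelsolin family gene in each library, plotted with an offset of 0.05 on a log axis, by group, with group means as lines (n = 5, 5 and 4) and bone marrow library 15 circled. Scin and Gsn of the bone marrow libraries lie above every resident library, while the 3 groups overlap for Capg, Avil and Svil.

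Gsn, which encodes gelsolin itself (ENSMUSG00000026879.14, chromosome 2, 35256380 to 35307892, plus strand), had the smallest adjusted p of the tested members in both bone marrow comparisons. It was at 201, 160, 232, 225 and 243 CPM in untreated resident libraries, at 321, 287, 174, 350 and 303 CPM after MC903 in resident libraries, and at 632, 645, 496 and 616 CPM in bone marrow libraries 11, 13, 14 and 15. The lowest bone marrow library was above the highest resident library of either treatment. The means were 212 ± 33.1 (SD, n = 5), 287 ± 67.4 (SD, n = 5) and 597 ± 68.4 CPM (SD, n = 4).

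Against MC903 resident cells, Gsn was 2.07-fold higher in bone marrow cells (log2 fold change 1.05 ± 0.197 (SE), edgeR adjusted p = 0.00451) and 2.82-fold higher than in untreated resident cells (log2 fold change 1.50 ± 0.198 (SE), edgeR adjusted p = 4.88e-05). Without library 15 the log2 fold changes were 1.04 (edgeR adjusted p = 0.00597) and 1.48 (edgeR adjusted p = 6.27e-05), so the differences were nearly as large in the libraries with few macrophage markers. Without library 11 they were 1.0 (edgeR adjusted p = 0.0148) and 1.46 (edgeR adjusted p = 0.000128). Between MC903 and untreated resident cells the Gsn groups overlapped, through library 8 at 174 CPM. That log2 fold change was 0.44 ± 0.186 (SE), at an edgeR adjusted p of 0.289, and 0.62 with an adjusted p of 0.0455 when only genes averaging 10 CPM or more entered the TMM factors.

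Flii encodes flightless-1, which joins gelsolin-type domains to leucine-rich repeats (ENSMUSG00000002812.4, chromosome 11, 60714123 to 60727263, minus strand). It was at 85.3, 112, 93.5, 72.0 and 58.2 CPM in untreated resident libraries, at 93.9, 93.5, 59.2, 74.6 and 101 CPM after MC903 in resident libraries, and at 173, 197, 104 and 186 CPM in bone marrow libraries 11, 13, 14 and 15. Library 14, the lowest of the bone marrow group, lay just above the MC903 resident libraries and within the untreated range. The means were 84.3 ± 20.7 (SD, n = 5), 84.4 ± 17.1 (SD, n = 5) and 165 ± 42.0 CPM (SD, n = 4).

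Flii rose in bone marrow cells by 0.97 ± 0.240 (SE) on the log2 scale against untreated resident cells (edgeR adjusted p = 0.0148) and by 0.96 ± 0.240 (SE) against MC903 resident cells (edgeR adjusted p = 0.0371). The first call was lost when library 13 was left out (edgeR adjusted p = 0.0590), and with single libraries left out that log2 fold change stayed between 0.87 and 1.14. The second was lost on leaving out any of 7 of the 9 libraries compared, namely 6, 7, 8, 9, 11, 13 or 15, with adjusted p-values up to 0.149, although the log2 fold change stayed between 0.82 and 1.14. It was lost too in 5 of 8 alternative fits, among them the one with DESeq2 size factors (adjusted p = 0.0786), with adjusted p-values up to 0.18. Over these 8 fits the log2 fold change stayed between 0.80 and 1.02. Without library 15 the bone marrow mean was 158 ± 48.5 CPM (SD, n = 3), and the log2 fold change against MC903 resident cells was 0.91 (edgeR adjusted p = 0.0625). The call against untreated cells held, with a log2 fold change of 0.91 without library 15 (edgeR adjusted p = 0.0386) and 0.94 without library 11 (edgeR adjusted p = 0.0389). MC903 and untreated resident cells had nearly the same Flii mean, with a log2 fold change of 0.01 ± 0.227 (SE) and an edgeR adjusted p of 0.995. Flii shares 64 exon bases with Llgl1 on the opposite strand. Whether reads were counted by strand was not given in the sources used here, and Llgl1 was at most at 45.5 CPM.

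Capg encodes the macrophage capping protein, which blocks filament ends and is common in macrophages (ENSMUSG00000056737.14, chromosome 6, 72544391 to 72562983, plus strand). It was at 880, 918, 962, 1086 and 1261 CPM in untreated resident libraries, at 677, 624, 563, 879 and 947 CPM after MC903 in resident libraries, and at 668, 904, 764 and 1093 CPM in bone marrow libraries 11, 13, 14 and 15. The 3 groups overlapped. The log2 fold change was -0.46 ± 0.181 (SE) in MC903 against untreated resident cells (edgeR adjusted p = 0.236), 0.21 ± 0.191 (SE) in bone marrow against MC903 resident cells (adjusted p = 0.603) and -0.25 ± 0.192 (SE) in bone marrow against untreated resident cells (adjusted p = 0.510). With limma and voom quality weights, Capg was lower in MC903 resident than in untreated cells (log2 fold change -0.51, adjusted p = 0.0255). Library 15, with the macrophage markers, held the highest Capg level of the bone marrow group, and its part there was not tested. Without it the bone marrow mean was 779 ± 119 CPM (SD, n = 3) against 857 ± 185 CPM (SD, n = 4) with it.

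Vill encodes villin-like protein, a relative of the microvillus protein villin (ENSMUSG00000038775.14, chromosome 9, 119052778 to 119071525, plus strand). It was at 112, 102, 106, 122 and 145 CPM in untreated resident libraries, at 91.6, 86.2, 105, 135 and 115 CPM after MC903 in resident libraries, and at 79.1, 100.0, 39.1 and 97.2 CPM in bone marrow libraries. Each bone marrow library was below each untreated library, yet the log2 fold change of -0.57 ± 0.249 (SE) did not pass the test (edgeR adjusted p = 0.183). Against MC903 resident cells it was -0.44 ± 0.248 (SE, edgeR adjusted p = 0.369), and between the resident groups -0.13 ± 0.232 (SE, adjusted p = 0.905), which changed sign under other scalings. Villin itself, Vil1, a family gene outside the chosen 7, was at most at 1.08 CPM in any library.

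Svil encodes supervillin, a large membrane-associated protein that binds actin and myosin (ENSMUSG00000024236.18, chromosome 18, 4920540 to 5119299, plus strand). It was at 23.4, 88.4, 63.0, 32.1 and 39.0 CPM in untreated resident libraries, at 60.4, 52.5, 51.7, 35.4 and 27.2 CPM after MC903 in resident libraries, and at 13.3, 18.1, 39.0 and 36.9 CPM in bone marrow libraries 11, 13, 14 and 15. The groups overlapped, since bone marrow libraries 14 and 15 lay within the resident range. The log2 fold changes in bone marrow cells were -0.77 ± 0.405 (SE) against MC903 resident cells (edgeR adjusted p = 0.333) and -0.87 ± 0.406 (SE) against untreated resident cells (adjusted p = 0.217). Between the resident groups it was -0.11 ± 0.376 (SE, edgeR adjusted p = 0.957), which also changed sign under other scalings.

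Avil encodes advillin, a member best known from sensory neurons and tuft cells (ENSMUSG00000025432.11, chromosome 10, 127000709 to 127020994, plus strand). It was at 0.396, 0, 3.26, 0.0474 and 0 CPM in untreated resident libraries, at 1.97, 27.3, 2.29, 0.146 and 0.0842 CPM after MC903 in resident libraries, and at 0, 28.2, 0.0853 and 1.11 CPM in bone marrow libraries 11, 13, 14 and 15. A count of 0 allows up to 0.123 CPM in library 2, 0.134 CPM in library 5 and 0.126 CPM in library 11 (3 counts, for counting error only). One library of each group, 3, 7 and 13, held most of the group's signal. None of the 3 comparisons passed the test for Avil (edgeR adjusted p = 0.582, 0.971 and 0.368). Its exons share 165 bases with Tsfm on the opposite strand, and Tsfm was at most at 38.6 CPM.

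Read as a family, 0 of 7 members were called in MC903 against untreated resident cells, where 2.25% of all genes tested were called, and 0 of 7 had groups that did not overlap, against 5.33% of all genes. At an unadjusted p under 0.05 there were 3 (Scin, Gsn and Capg), beside 12.6% of all genes. The DESeq2 Wald test called 2 (Scin and Gsn), beside 5.44% of all genes, and voom 1 (Capg), beside 6.46%. In bone marrow against MC903 resident cells, 2 of the 6 members other than Scin were called (Gsn and Flii, both higher), where 2.27% of all genes were called, and the same 2 had groups that did not overlap, against 8.29% of all genes. In bone marrow against untreated resident cells 2 of 6 were called, again Gsn and Flii, against a background of 6.87%, and 2 of 6 (Gsn and Vill) had groups that did not overlap, against 10.4%. The background depends on the level of the genes tested. With the filter at a mean of 10 CPM, 2 members were called against untreated resident cells, beside 21.5% of the 8209 genes then tested. Against MC903 resident cells 1 member was then called, beside 6.80%. The median log2 fold change of the 6 was 0.20 against MC903 resident cells and 0.36 against untreated resident cells, beside medians over all genes of -0.28 and -0.14. These comparisons share libraries, so the 2 bone marrow results are not independent of each other.

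**Figure D2:**
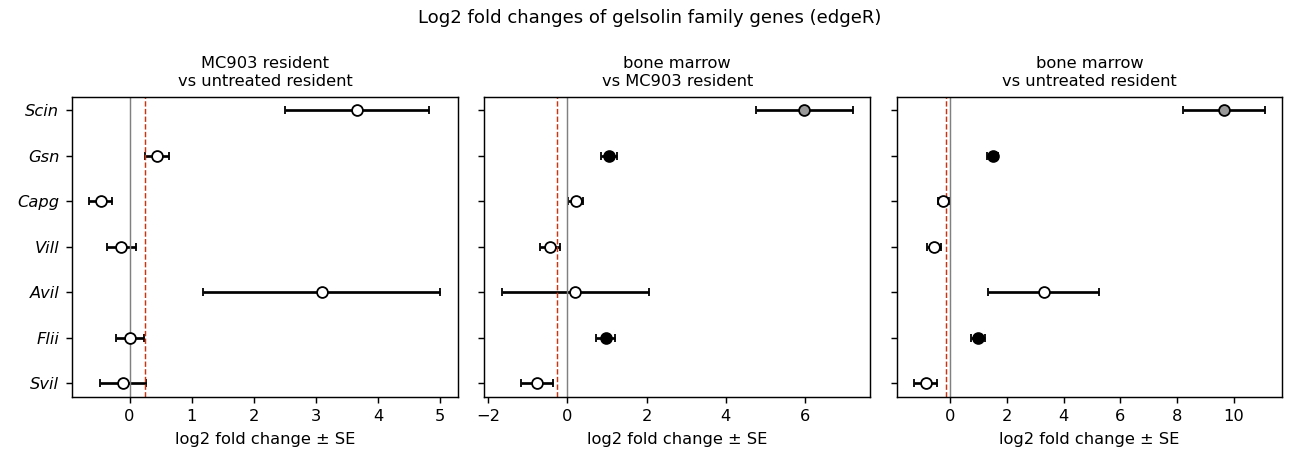
Log2 fold change with its standard error (edgeR) of each gelsolin family gene in the 3 comparisons. Filled points passed the adjusted p threshold of 0.05, open points did not, grey points are the bone marrow values of Scin, which chose the family and were not tested, and the dashed line is the median of all genes tested. Gsn and Flii are filled in both bone marrow panels.

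To compare members with each other, CPM was divided by the exon length in kilobases. On this scale Capg led in every group, at 404 ± 61.3, 292 ± 65.9 and 339 ± 73.1 CPM per kilobase in untreated resident (SD, n = 5), MC903 resident (SD, n = 5) and bone marrow cells (SD, n = 4). Gsn was next in the resident groups, at 67.2 ± 10.5 and 90.9 ± 21.4 CPM per kilobase, and stood at 189 ± 21.7 CPM per kilobase in bone marrow cells. Scin stood at 170 ± 70.0 CPM per kilobase there, and the order of the pair depended on library 15. Without it Scin was at 202 ± 33.3 and Gsn at 187 ± 26.1 CPM per kilobase (SD, n = 3), and Scin exceeded Gsn in libraries 13 and 14 but not in 11 and 15. Their spreads overlapped either way, whereas the Scin mean in both resident groups was below those of Vill, Flii and Svil. Flii was at 16.7 ± 4.10, 16.8 ± 3.40 and 32.8 ± 8.33 CPM per kilobase, and Vill at 26.6 ± 3.83, 24.2 ± 4.43 and 17.9 ± 6.37 CPM per kilobase. Vill was above Flii on this scale in each of the 10 resident libraries and below it in each of the 4 bone marrow libraries.

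The make-up of the family's summed level differed accordingly, and the following shares are descriptions, since Scin enters them. The sum of the 7 genes was 519 ± 68.2 CPM per kilobase in untreated resident (SD, n = 5), 432 ± 85.9 in MC903 resident (SD, n = 5) and 753 ± 79.2 in bone marrow cells (SD, n = 4). Without Scin the sums were 519 ± 68.1, 430 ± 84.1 and 584 ± 94.0 CPM per kilobase, and the groups overlapped. Capg made up 77.6% ± 1.78 of the sum in untreated resident cells, 67.3% ± 3.39 in MC903 resident cells and 44.9% ± 8.01 in bone marrow cells. Gsn made up 12.9% ± 1.47, 21% ± 3.13 and 25.2% ± 3.07. The lowest Gsn share of an MC903 resident library, 17.2%, was above the highest of an untreated one, 14.6%. Gsn CPM itself overlapped between these groups (edgeR adjusted p = 0.289). The Capg mean, the largest part of the sum, was lower after MC903 though not called, and a share moves with the other members too. Scin made up 0.0390% ± 0.0305 and 0.561% ± 0.679 in the resident groups, and 24.1%, 26.4%, 30.4% and 9.57% in bone marrow libraries 11, 13, 14 and 15. Library 15 had both the lowest Scin share and the highest Capg share (56.7%) of its group. Without it the bone marrow shares were 41.0% ± 2.06 for Capg, 26.9% ± 3.18 for Scin and 25.1% ± 3.75 for Gsn (SD, n = 3).

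**Figure D3:**
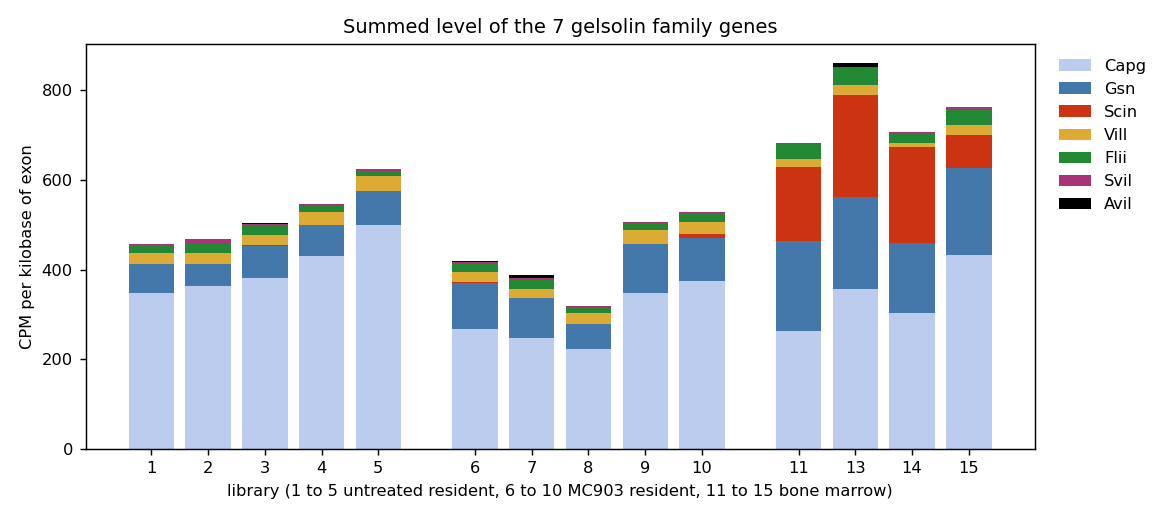
Summed level of the 7 gelsolin family genes in each library, in CPM per kilobase of exon, stacked by gene. Capg forms most of each resident bar, and the Scin segment is visible mainly in the 4 bone marrow bars, from 9.57% of the bar in library 15 to 30.4% in library 14.

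Gelsolin family proteins act on filaments together with many other actin regulators, and 68 of these in 7 lists were described beside them, all of which were tested. In MC903 against untreated resident cells 2 of 68 were called, 1 higher and 1 lower, a share close to the 2.25% of all genes. The median log2 fold change was 0.02, against 0.24 over all genes. Actg1, cytoplasmic gamma-actin, was lower, at 822 ± 109 against 1743 ± 149 CPM (SD, n = 5 each; log2 fold change -1.08 ± 0.148 (SE), edgeR adjusted p = 0.000237). Every MC903 resident library, at most 938 CPM, lay below every untreated one, at least 1562 CPM. Enah, which helps filaments to elongate, was higher, at 41.0 ± 5.07 against 15.7 ± 2.10 CPM (SD, n = 5 each; log2 fold change 1.39 ± 0.310 (SE), edgeR adjusted p = 0.0158). The Enah call was lost without the filter on low counts and without libraries 7, 8 and 15 together, at log2 fold changes of 1.35 and 1.30 (adjusted p up to 0.132).

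In bone marrow against MC903 resident cells 7 of 68 were called, 6 higher and 1 lower, where 2.27% of all genes were called. The median log2 fold change was 0.24, against -0.28 over all genes. Coro1a, the leukocyte coronin of the disassembly list, was at 580, 743, 576 and 502 CPM in the bone marrow libraries and from 137 to 296 CPM in resident libraries after MC903, without overlap (log2 fold change 1.40 ± 0.213 (SE), edgeR adjusted p = 0.000821). Flna, the crosslinker filamin A, was at 185 ± 39.9 CPM (SD, n = 4) against 70.0 ± 12.6 CPM (SD, n = 5), which gave 1.40 ± 0.244 (SE) on the log2 scale (edgeR adjusted p = 0.00295). Its highest level, 239 CPM, was in library 15. Without that library alone the call held (log2 fold change 1.25, edgeR adjusted p = 0.00702), and without libraries 7, 8 and 15 together it was lost at a log2 fold change of 1.11 (adjusted p = 0.0743). Actr3, a subunit of the branching Arp2/3 complex, was at 262 ± 23.4 CPM (SD, n = 4) against 107 ± 32 CPM (SD, n = 5), or 1.29 ± 0.227 (SE) on the log2 scale (edgeR adjusted p = 0.00297). Enah was the lower gene, with a mean of 15.1 ± 4.32 CPM (SD, n = 4), close to its untreated level (log2 fold change -1.45 ± 0.335 (SE), edgeR adjusted p = 0.0238). That call was lost without library 13 or 14 (adjusted p up to 0.0998), and also without the filter on low counts and without libraries 7, 8 and 15 together (up to 0.168). In these fits the log2 fold change lay between -1.51 and -1.26.

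In bone marrow against untreated resident cells 9 of 68 were called, 8 higher and 1 lower, where 6.87% of all genes were called. The median log2 fold change was 0.31, against -0.14 over all genes. Coro1a (log2 fold change 1.91 ± 0.215 (SE), edgeR adjusted p = 8.41e-06) and Flna (1.86 ± 0.246 (SE), adjusted p = 4.88e-05) again had the largest log2 fold changes among those called. Tmsb10, thymosin beta-10, which holds actin monomers, was at 121 ± 54.9 CPM (SD, n = 4) against 46.4 ± 8.88 CPM (SD, n = 5), or 1.39 ± 0.330 (SE) on the log2 scale (edgeR adjusted p = 0.0113). It reached 204 CPM in library 11, and without that library the call was lost at a log2 fold change of 1.0 (adjusted p = 0.0789). Tmod3, tropomodulin-3, which caps pointed ends, was lower, at 120 ± 24.9 against 203 ± 31.9 CPM (log2 fold change -0.76 ± 0.229 (SE), edgeR adjusted p = 0.0473). When the 9 libraries compared were left out in turn, that call held only without library 2 or without library 11. It was also lost without the filter on low counts and without libraries 7, 8 and 15 together (adjusted p up to 0.0969). Over these alternatives and left-out libraries the log2 fold change lay between -0.90 and -0.65. None of the 7 cofilin kinases and phosphatases and none of the 3 kinases that make PIP2 was called in any comparison by edgeR, and 0 of these 10 had an unadjusted p under 0.05. The DESeq2 Wald test and voom also called 0 of them. With 2.25%, 2.27% and 6.87% of all genes called by edgeR, a count of 0 among 10 genes does not set these lists apart.

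**Figure D4:**
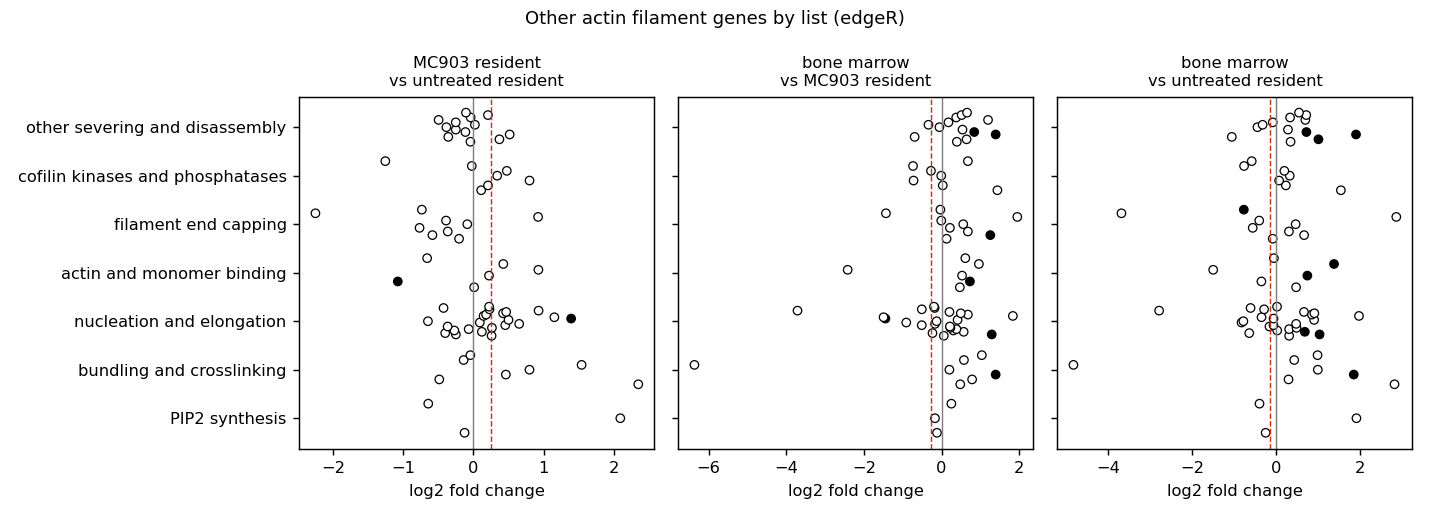
Log2 fold change (edgeR) of each of the 68 other actin filament genes, by list, in the 3 comparisons. Filled points passed the adjusted p threshold of 0.05 (2, 7 and 9 genes), open points did not, and the dashed line is the median of all genes tested.

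For the 6 members other than Avil, whose group means were all below 20 CPM, the genes whose log2 CPM was most like theirs over the 14 libraries, among 6929 genes with a group mean of at least 20 CPM, are given as a description, since such a correlation follows the 3 groups. For Scin these were Kcnn4 (r = 0.978), a calcium-activated potassium channel gene, Bax (r = 0.928), a gene of the apoptosis machinery, and Napsa (r = 0.925), an aspartic protease gene. The bone marrow mean of Kcnn4 was 213 ± 79.5 CPM (SD, n = 4), and within the resident libraries it too was highest in libraries 6 and 10, at 12.5 and 8.67 CPM, against at most 2.95 CPM in the other 8. Its lowest bone marrow library was library 15, at 118 CPM, as for Scin. Napsa was at 2.88 ± 1.86 CPM in untreated resident (SD, n = 5) and 164 ± 35.6 CPM in bone marrow cells (SD, n = 4), whereas Bax lay within a narrower range, at 44.4 ± 4.59 and 77.1 ± 8.62 CPM. For Gsn the most similar genes were Atp6v0a1 (r = 0.957), a subunit of the proton pump of acidic compartments, Srm (r = 0.940), spermidine synthase, and Ppp1ca (r = 0.937), a catalytic subunit of protein phosphatase 1. Capg was closest to Lztfl1 (r = 0.926), Cdc42 (r = 0.926), a small GTPase of the actin cytoskeleton, and Lgals3 (r = 0.895), galectin-3. Ap1b1 (r = 0.904) and Fbxo38 (r = 0.890) were among the genes most like Flii. Vill was closest to Amhr2 (r = 0.914), Sugp1 (r = 0.889) and Pstpip2 (r = 0.886), and Svil to Selenoi (r = 0.852), Soga1 (r = 0.833) and Tmem245 (r = 0.775). Among the members themselves, Scin was most like Gsn (r = 0.844) and Flii (r = 0.725), and its correlation with Capg was -0.15.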

How the data were processed

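RNA from sorted mast cells of 14 libraries was amplified with SMART-Seq HT and prepared with Nextera XT, per the labels' protocols. The authors deposited raw read counts per gene with each gene's exon length. Per the submitters' processing notes, STAR, featureCounts and mm10 were used, with versions, strand setting and handling of shared reads not given in the sources used here. Gene identifiers of 55094 of 55487 rows matched GENCODE M21 by version and coordinates, and 55394 had a symbol. SMART-Seq HT adds no molecular identifiers, so intervals and floors cover counting error only.

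From these counts, genes were filtered with filterByExpr (minimum count 10, total 15), normalized by TMM and fitted as 3 groups in 1 model with edgeR 4.0.16 (robust quasi-likelihood, glmQLFTest) in R 4.3.3, with Benjamini-Hochberg adjustment over 21014 genes and calls at an adjusted p under 0.05. CPM used the library total times the TMM factor, log2 CPM a prior count of 2, and each SE came from dividing the log2 fold change, without its sign, by the square root of F. The 7 members and all gene lists were chosen with earlier results of these data known. The text names the members, Vil1, per comparison up to 3 called actin genes with the largest change in each direction, and the 3 genes most correlated with each member at a group mean of at least 20 CPM (6 members, without Avil), of which 1 is not reported here. Other genes named (markers, overlapping neighbours) were added beside the results they touch. Alternatives were DESeq2 1.42.0 size factors and Wald test, limma 3.58.1 voom with quality weights, TMM from genes at a mean of 10 CPM, other filters, fits of only the groups compared, a minimum log2 fold change of 1, medians for shares, libraries 7, 8 and 15 left out, and each library left out. Library numbers run in 1 series over the groups, so no pairing was used.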

Additional observations from a re-analysis of the deposited data

Results flagged for a closer look

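Among 21 pairs of a group and a family gene checked for a library far from the others, 3 had one, all in Avil, where chance gives about 1 in 20. In untreated resident cells Avil was highest in library 3 (3.26 CPM, others at most 0.396 CPM), in MC903 resident cells in library 7 (27.3 CPM, others at most 2.29 CPM) and in bone marrow cells in library 13 (28.2 CPM, others at most 1.11 CPM). Counts behind these values were 87, 476 and 810.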

How the results depend on the processing

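The log2 fold change of Gsn in bone marrow cells stayed past the threshold under each alternative run, between 0.84 and 1.14 against MC903 resident and between 1.41 and 1.57 against untreated resident cells. Family genes called in MC903 against untreated resident cells numbered 1 with TMM from genes of at least 10 CPM (2.46% of the genes tested were called). They numbered 1 with the filter at 10 CPM (7.87%), 2 with the DESeq2 Wald test (5.44%) and 1 with voom (6.46%). When single libraries were left out they numbered 0, beside 312 to 516 of all genes called. Against MC903 resident cells, family genes called in bone marrow cells fell to 1 with the minimum log2 fold change of 1 (383 of all genes). They also numbered 1 with DESeq2 size factors (1.95% of the genes tested), TMM from 10 CPM (2.07%) and the filter at 10 CPM (6.80%). The count was 1 again with only the groups compared (1.85%) and without libraries 7, 8 and 15 (1.80%). With single libraries left out it ranged from 1 to 2, beside 302 to 704 of all genes called. Against untreated resident cells the count of family genes was 1 with the minimum fold change (1201 of all genes). It was 1 to 2 with single libraries left out, beside 1140 to 1549 of all genes called. Other actin genes called between resident groups (2) numbered 5 with the DESeq2 Wald test (5.44%), 5 with voom (6.46%) and 1 without libraries 7, 8 and 15 (1.35% of the genes tested). Against MC903 resident cells (7) they were 13 without a filter (1.54% of the genes tested), 11 with DESeq2 (8.58%) and 21 with voom (9.60%). They were 4 with only the groups compared (1.85%) and 2 without libraries 7, 8 and 15 (1.80%). With single libraries left out they were 3 (without library 13) to 9, beside 302 to 704 of all genes called. Against untreated resident cells (9) they were 5 with the minimum fold change (1201 of all genes), 16 with the 10 CPM filter (21.5% of the 8209 genes then tested), 15 with DESeq2 (14.8% of the genes tested) and 15 with voom (10.4%).

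Of all genes, 473 were called between resident groups (120 higher, 353 lower), 1063 with DESeq2 (596 higher, 467 lower), 1358 with voom (661 and 697), 253 without libraries 7, 8 and 15, and 312 to 516 with single libraries left out (312 without library 1, 314 without library 6). In bone marrow against MC903 resident cells 477 were called (277 higher, 200 lower), 748 without a filter, 1711 with DESeq2 (444 higher, 1267 lower), 2017 with voom (672 and 1345), 315 with only the groups compared, and 302 to 704 with single libraries left out (302 without library 7, 305 without 6, 314 without 9). Against untreated resident cells 1443 were called, 2707 with DESeq2 and 2194 with voom. DESeq2 size factors and TMM from 10 CPM moved the median of all genes by 0.15 and 0.21 (log2) between resident groups and by -0.15 and -0.16 in bone marrow against MC903 resident cells. The splits were then 207 higher and 294 lower, and 251 and 265, between resident groups, and 167 and 242, and 178 and 258, in bone marrow against MC903 resident cells.

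Some log2 fold changes of members changed sign. Between resident groups Vill was at 0.00013 with DESeq2 size factors, 0.055 with TMM from 10 CPM, 0.056 with the 10 CPM filter and 0.00015 with the Wald test (-0.16 to 0.0035 with single libraries left out). Svil was at 0.066, 0.12, 0.12 and 0.066 in the same order and 0.045 with voom (-0.17 to 0.23). Flii was at -0.026 without a filter and -0.054 with voom (-0.094 to 0.16). Avil, at 3.10 with all libraries, was at -0.022 without libraries 7, 8 and 15. In bone marrow against MC903 resident cells Avil was at -0.092 with DESeq2 size factors, -0.15 with TMM from 10 CPM, -0.093 with the Wald test, -2.23 with voom and -0.0027 with only the groups compared (-4.01 to 2.60), and Capg at -0.12 without libraries 7, 8 and 15. Against untreated resident cells Avil, at 3.29 with all libraries, ranged from -0.89 (without library 13) to 6.03 (without library 3) with single libraries left out. The 10 CPM filter removed Avil. Beyond fewer samples or genes, the cause was not tested. Scin in resident cells ranged from 2 to 618 counts a library, and Avil over the 3 groups from 0 to 810. The part of sequencing depth in these counts was not tested.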
